A study of Rattus norvegicus with 241 samples.

Results

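The effect of estradiol (E2) was examined in luminal mammary epithelial cells of ACI rats that had received a TGFBR inhibitor (TGFBRi) as young animals and were labelled tumor-free in the E2 experiment. The comparison took bulk RNA-seq samples of luminal cells from 4 rats with an E2 implant and 3 rats without E2, 10 samples of 7 rats among 241 samples in all. One E2 rat (E2 rat 1) had been sampled in 4 parts, which were averaged so that it counted as 1 rat. All 7 were virgin female ACI rats, an inbred strain that develops estrogen receptor-positive mammary tumors under sustained E2. All received LY2157299, an oral inhibitor of the kinase of TGFBR1, at 75 mg/kg per dose. It was given as 2 daily doses over 21 days, the first when the rats were 38 days old. Silastic implants that held 37 mg of estradiol, or air in the no-E2 rats, were placed at 60 days of age, so that the effect of E2 was read long after the last dose of the inhibitor. The same luminal sort of 4 vehicle rats without E2 and of 4 tumor-bearing vehicle rats with E2 gave the E2 effect without the inhibitor, and 2 further TGFBRi-treated rats with E2 bore tumors. Every vehicle rat with E2 was tumor-bearing, so treatment and tumor status cannot be told apart between the E2 effects of TGFBRi and vehicle. The tumor-free E2 rats were those in which no tumor had formed when they were taken. Per the methods, rats in poor health from pituitary adenomas were taken before the end of the experiment, and the labels give no time per rat. No luminal RNA from before the implant was analysed here, so the values describe an end state and not its course.

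Luminal cells of the mammary gland line the ducts and alveoli and fall broadly into hormone-sensing cells, which carry the estrogen and progesterone receptors, and secretory progenitors and alveolar cells, which lack them. Hormone-sensing cells answer E2 and progesterone by releasing paracrine signals such as amphiregulin, RANKL and WNT4, and the alveolar cells respond to pituitary prolactin through its receptor, JAK2 and STAT5 with the synthesis of caseins, whey proteins, milk fat and lactose. Sustained E2 is known to enlarge the pituitary and raise circulating prolactin in ACI rats, and hormone levels were not analysed here.

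The luminal gate (CD24+CD29low cells within CD31-CD45- cells) was checked against marker genes of other cell types. Each of 20 luminal samples of the experiment held 18561677 to 52314784 reads on genes, so that counting error weighed mainly on genes with few reads. Such genes also varied between samples, as BRINP1 did with 0, 12.1, 63.5 and 5.64 normalized counts in the parts of E2 rat 1. The precision of the others was set by the spread between rats. The 11 luminal markers, such as EPCAM and KRT8, summed to 622389 to 871593 normalized counts (reads divided by a size factor of the sample) in E2 rats and 745144 to 1140733 in no-E2 rats. Markers of other cells were far lower. The 12 endothelial markers summed to 863, 1088, 9227 and 399 normalized counts in E2 rats 1 to 4 and to 17815, 7149 and 45416 in no-E2 rats 1 to 3. All 12 had a log2 fold change below 0, with a median of −3.59, and ESAM was the 1 that passed the test. The median ran from −4.68 to −2.15 with 1 rat left out, where 0 to 3 of the 12 passed, and was −2.19 by DESeq2. ESAM passed in 1 of 7 such fits, and neither by edgeR (adjusted p = 0.25) nor by DESeq2 (adjusted p = 0.20). The 12 basal markers summed to 8939, 12737, 39206 and 8733 with E2 and to 3436, 5776 and 3519 without. Leukocyte markers summed to 488 to 789.6 with E2 and 744 to 4281 without, with CD79B at 0 in every E2 rat, and fibroblast markers to 1068 to 12131 and 8251 to 33098. E2 rat 3 stood apart from its group by its endothelial and basal levels, and no-E2 rat 2 by its leukocyte level. No-E2 rat 3 held the most endothelial marker RNA of its group. No-E2 rat 1 held the least fibroblast marker RNA of its group, at 8251 against 33098 and 29984. In RNA of a sorted population, fewer cells of a type and less RNA per cell cannot be told apart. The part of these markers in the results below was not tested beyond the values given with them.

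**Figure D1:**
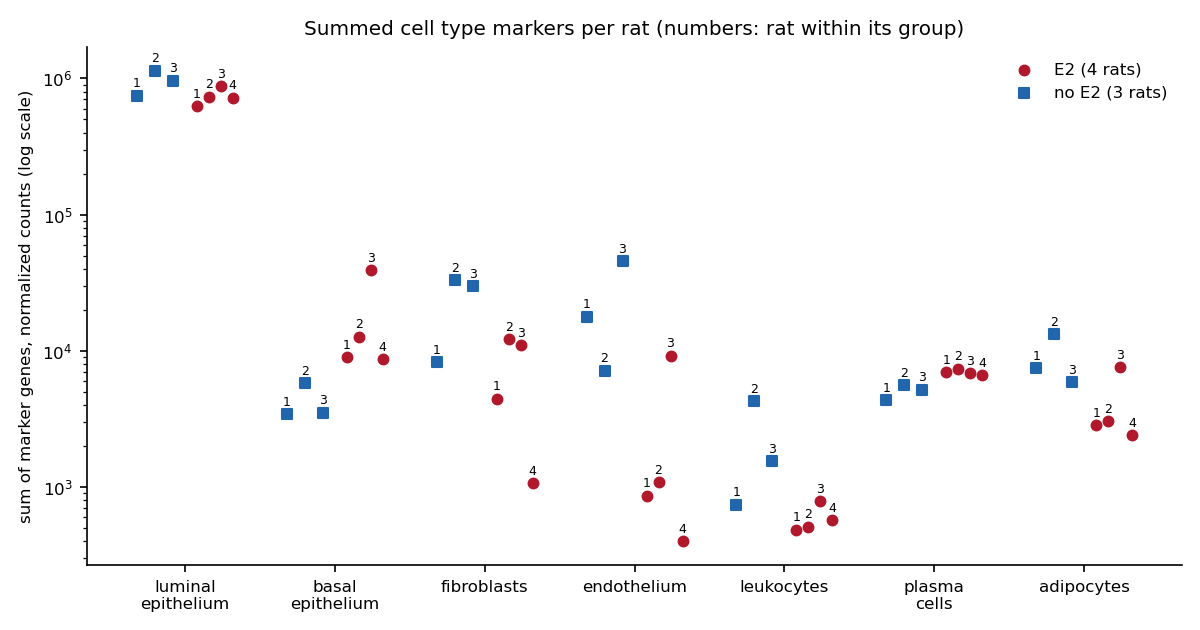
Summed normalized counts (log scale) of marker genes of 7 cell types in luminal samples of TGFBRi-treated rats, with a point per rat and its number within the group. The luminal sums of both groups overlap, from 622389 to 871593 with E2 and 745144 to 1140733 without, whereas the endothelial sums of E2 rats 1, 2 and 4 lie below all 3 no-E2 rats and the basal sums of all 4 E2 rats lie above them.

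E2 changed a broad set of genes. Of 13590 genes tested, 343 (2.52%) rose and 280 (2.06%) fell with E2 in TGFBRi-treated rats by limma, where an adjusted p (Benjamini-Hochberg) of at most 0.05 made a call, 4.58% in either direction. The median log2 fold change was 2.15 among the raised and −2.05 among the lowered genes, against −0.04 over all genes tested. A change of at least 4-fold was seen in 185 raised and 143 lowered genes. The values of the E2 and no-E2 rats did not overlap in 334 of the raised and 270 of the lowered genes, whereas 8.52% and 9.46% of all genes tested were separated in these directions. The number of calls depended on single rats and on the tool. With 1 rat left out, 146 to 335 genes rose and 100 to 310 fell, the lowest counts without E2 rat 1 or 4 (raised) and E2 rat 4 or no-E2 rat 3 (lowered). 92 raised and 64 lowered genes were called in 7 of 7 such fits. edgeR called 215 and 163 genes and DESeq2 582 and 565. With the mean log2 level of the endothelial markers as a covariate, a choice made after seeing the data, 61 genes rose and 48 fell, of which 57 and 44 were among those called without it. That level itself differed between the groups, with sums of 863, 1088 and 399 in E2 rats 1, 2 and 4 and of 7149 to 45416 without E2. Adjusting for it can thus take away part of the E2 difference as well. A call lost or kept with this covariate cannot tell endothelial RNA from E2, and the cause was not tested.

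Milk protein genes rose together. Of 17 measured milk protein genes, 13 rose by limma and by DESeq2 and 9 by edgeR, where limma called 2.52% of all genes tested as raised. None fell by these tools, and all 17 had a log2 fold change above 0, with a median of 2.24. Their share of all gene reads was 19.1%, 30.2%, 15% and 22.1% in E2 rats 1 to 4 and 4.28%, 2.56% and 2.9% in no-E2 rats 1 to 3, with 95% Wilson intervals of at most 0.02 percentage points on either side that cover counting error alone. The lowest E2 rat was thus above the highest no-E2 rat. β-casein (CSN2), the most abundant milk protein of rodents, alone took 9.74%, 15.6%, 7.18% and 10.2% of the reads with E2 and 0.373%, 0.117% and 0.0297% without.

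**Figure D2:**
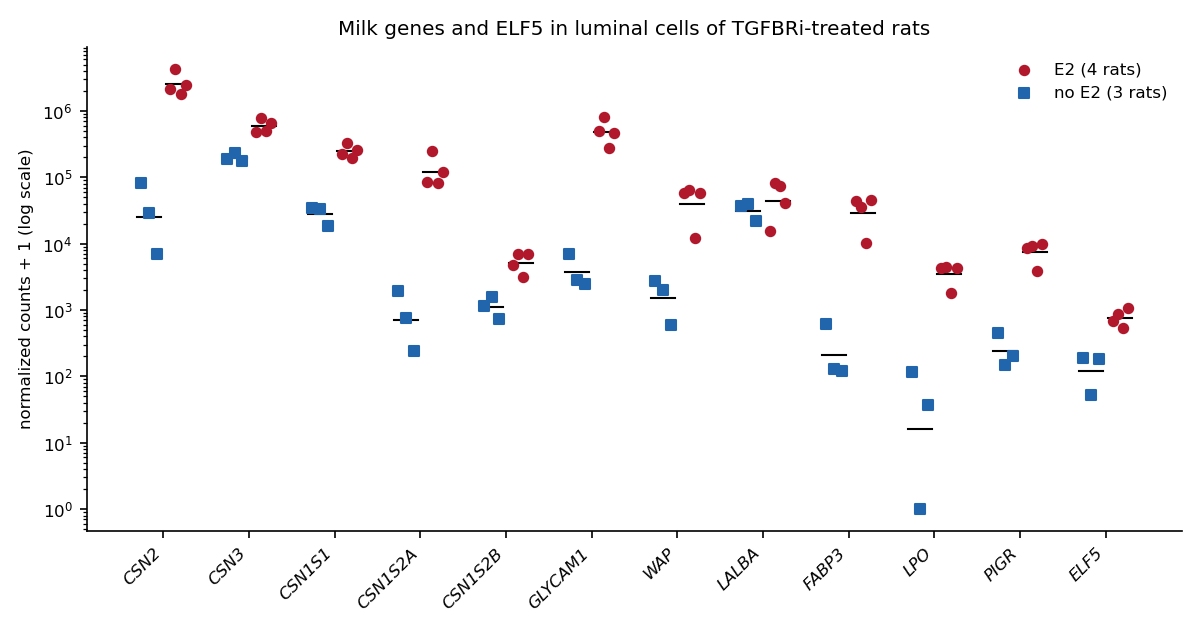
Normalized counts + 1 (log scale) of 11 milk genes and ELF5 in luminal cells of TGFBRi-treated rats, with a point per rat (circles, 4 E2 rats; squares, 3 no-E2 rats) and a line at the geometric mean of each group. The groups do not overlap in any gene shown but LALBA, and E2 rat 3 is the lowest E2 rat in every gene shown but CSN3 and LALBA.

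All 5 caseins rose, with log2 fold changes from 1.59 to 7.42. CSN1S2A, an αS2-like casein, had 86478, 246238, 82066 and 122399 normalized counts in E2 rats and 1908, 757 and 244 in no-E2 rats. The groups were far apart, with a log2 fold change of 7.42 (SE 0.76, adjusted p = 5.2e-05), the smallest adjusted p of the list, and the call held with any 1 rat left out. CSN2 had 2182183, 4294492, 1783542 and 2462334 normalized counts with E2 and 82497, 28902 and 7111 without, a log2 fold change of 6.62 (SE 1.74, adjusted p = 0.043). The no-E2 rats spread widely here, and CSN2 passed in 1 of 7 fits with 1 rat left out (highest adjusted p 0.17, without no-E2 rat 3). CSN1S1, the αS1-casein, had 227818, 329108, 194249 and 254845 normalized counts against 35104, 33664 and 18760.4. Its log2 fold change of 3.14 (SE 0.55, adjusted p = 0.0036) held with any 1 rat left out. CSN1S2B and CSN3 (κ-casein, which stabilizes the micelle) rose by 2.24 (adjusted p = 0.024) and 1.59 (adjusted p = 0.035) on the log2 scale and passed in 2 and 1 of 7 such fits. κ-casein was at 175214 to 228995 normalized counts without E2, the highest level of the caseins in those rats.

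The window before the start site of 4 caseins and of GLYCAM1 held the letters TTCNNNGAA, the general form of a STAT5 site, and is shown because these genes rose together and prolactin acts on milk genes through STAT5. The letters read the same on both strands, so 1 search covers both. The sequences are the 250 bases before the start site from RefSeq (GRCr8), 5′ to 3′ on the gene's strand, with the match in capitals. Positions count back from the start site.
CSN1S1 (chr14:20638850-20639099, minus strand): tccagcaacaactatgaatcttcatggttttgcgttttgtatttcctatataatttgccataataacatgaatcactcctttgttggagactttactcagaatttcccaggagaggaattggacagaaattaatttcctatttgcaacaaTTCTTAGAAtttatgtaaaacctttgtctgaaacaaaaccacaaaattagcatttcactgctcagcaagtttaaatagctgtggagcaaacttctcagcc
CSN1S2A (chr14:20574472-20574721, minus strand): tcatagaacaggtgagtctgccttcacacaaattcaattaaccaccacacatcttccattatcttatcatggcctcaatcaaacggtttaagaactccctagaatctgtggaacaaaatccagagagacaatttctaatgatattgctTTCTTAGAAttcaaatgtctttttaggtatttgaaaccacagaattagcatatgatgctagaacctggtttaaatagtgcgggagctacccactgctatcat
CSN1S2B (chr14:20545619-20545868, minus strand): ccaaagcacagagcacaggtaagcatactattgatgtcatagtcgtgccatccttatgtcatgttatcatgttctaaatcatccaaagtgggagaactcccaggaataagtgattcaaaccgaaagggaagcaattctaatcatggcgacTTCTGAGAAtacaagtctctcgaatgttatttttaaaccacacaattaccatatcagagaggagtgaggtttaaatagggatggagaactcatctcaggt
CSN2 (chr14:20601574-20601823, plus strand): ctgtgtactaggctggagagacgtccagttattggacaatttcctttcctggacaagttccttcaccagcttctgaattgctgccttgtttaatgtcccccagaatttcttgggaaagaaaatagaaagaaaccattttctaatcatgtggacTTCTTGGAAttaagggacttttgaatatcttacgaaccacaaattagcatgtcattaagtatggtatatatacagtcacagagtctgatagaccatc
GLYCAM1 (chr7:136561300-136561549, minus strand): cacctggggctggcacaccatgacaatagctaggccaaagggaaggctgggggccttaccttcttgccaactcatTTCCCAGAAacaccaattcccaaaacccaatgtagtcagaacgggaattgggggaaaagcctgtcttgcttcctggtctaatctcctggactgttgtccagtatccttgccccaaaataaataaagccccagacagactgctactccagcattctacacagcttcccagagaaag
The match began 97 bases before the start site in CSN2, 100 bases before it in CSN1S1 and CSN1S2B, within 5 bases of that distance in CSN1S2A, and 175 bases before it in GLYCAM1. All 5 casein windows lie on chromosome 14 within 199.3 kb, and caseins are related by duplication, so their windows are not independent. The letters occurred in the window (250 bases before to 50 after the start site) of 5 of 16 milk protein genes with a window (31.2%), 8.87% of all 33469 windows and 7.08% of the 10583 tested genes with a window. Among genes that rose the share was 7.04% (19 of 270) and among genes that fell 7.84% (16 of 204), both close to that of all genes tested. A full estrogen response element, GGTCANNNTGACC, was in 9 of all windows and in no window of a raised or lowered gene. A match is a description of the letters and not a binding site.

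Whey and secretory proteins rose with the caseins. GLYCAM1, a mucin-like protein of milk, had 500468, 820382, 273284 and 467110.5 normalized counts with E2 and 7043, 2835 and 2512 without, a log2 fold change of 7.02 (SE 1.06, adjusted p = 0.0018). LPO, the antibacterial lactoperoxidase, had 4258, 4439.7, 1809 and 4234 normalized counts against 114, 0 and 36.1 (log2 fold change 7.74, SE 1.20, adjusted p = 0.0016). PIGR, which carries immunoglobulin A into milk, had 8655, 9175, 3898 and 9929.7 against 454, 147 and 204 (4.96, SE 0.74, adjusted p = 0.0012). The groups were separate for all 3 genes and each call held with any 1 rat left out. WAP, the whey acidic protein, had 58039.9, 64064, 12222 and 57877 normalized counts with E2 and 2761, 2012 and 604 without (log2 fold change 4.75, SE 1.27, adjusted p = 0.046). WAP passed in 1 of 7 fits with 1 rat left out, that without E2 rat 3, the lowest E2 rat, and its adjusted p reached 0.18 without no-E2 rat 3. The milk fat globule proteins XDH, MUC15, BTN1A1 and MFGE8 rose by 2.28, 2.22, 2.05 and 1.48 on the log2 scale, with adjusted p of 0.013 to 0.046 and calls in 3, 3, 2 and 6 of 7 such fits.

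The other 4 milk proteins did not pass. α-Lactalbumin (LALBA), the regulatory subunit of lactose synthase, had 15668, 81055, 73119.8 and 40479 normalized counts with E2 and 36740.1, 39522 and 21839.7 without. The groups overlapped, and the log2 fold change was 0.48 (SE 0.60, adjusted p = 0.72). Transferrin (TF), the lipase CEL and osteopontin (SPP1) had log2 fold changes of 1.22, 0.39 and 1.11. The list as a whole kept 6 to 13 raised genes with 1 rat left out, and 4 of 17 with the endothelial covariate (LPO, CSN1S2A, GLYCAM1 and PIGR). The 9 others stayed above 0 with the covariate, and CSN2, CSN1S1, CSN1S2B, CSN3, WAP, XDH, MUC15, BTN1A1 and MFGE8 had log2 fold changes of 5.23, 2.68, 1.59, 1.38, 3.35, 2.31, 2.19, 2.02 and 1.40.

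Genes of milk fat and lactose synthesis rose in part. Of 28 tested, 6 rose and 1 fell (2.52% and 2.06% of all genes tested), with a median log2 fold change of 1.02 and 23 above 0. From 4 to 11 rose and 0 to 2 fell with 1 rat left out, 11 and 2 of them without E2 rat 3. DESeq2 called 13 raised and 3 lowered. FABP3, the fatty acid-binding protein of the lactating gland, had 43558, 35360.5, 10337 and 46188 normalized counts with E2 and 626, 128 and 119 without. Its log2 fold change of 7.10 (SE 0.79, adjusted p = 9.9e-05) held with any 1 rat left out and stood apart from the rest of the list. The desaturases FADS1 and FADS2 rose by 2.44 and 1.88, acetyl-CoA synthetase ACSS2 by 2.28, malic enzyme ME1, which supplies NADPH, by 2.13 and aldolase ALDOC by 1.71 on the log2 scale. ACSS2, ME1 and ALDOC were called in 7 of 7 fits with 1 rat left out, FADS1 and FADS2 in 3 and INSIG1 in 1. FABP3 and ALDOC were the 2 still called with the endothelial covariate, where FADS1, FADS2, ACSS2, ME1 and INSIG1 were at 2.36, 1.48, 2.07, 1.71 and −1.02 on the log2 scale. INSIG1, which holds back the lipogenic factor SREBP, fell from 10260.0, 11804 and 12915 to 3243, 4635, 6391 and 2924 normalized counts (adjusted p = 0.033). FASN, the fatty acid synthase, had 12512, 10044, 7553 and 13232 normalized counts with E2 and 14059.9, 1173 and 11001 without, and its groups overlapped (adjusted p = 0.58). SCD had 2113, 1566, 190.2 and 2374 against 378, 61.1 and 160.0 (2.83, SE 0.86, adjusted p = 0.07), and passed without E2 rat 3 (adjusted p = 0.01).

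Among the regulators of alveolar differentiation, ELF5 rose and PRLR and GATA3 fell. ELF5, the transcription factor that specifies alveolar cells, had 689, 870.3, 529 and 1073 normalized counts with E2 and 188, 51.8 and 179 without (log2 fold change 2.65, SE 0.48, adjusted p = 0.0044). PRLR, the prolactin receptor, had 749, 384, 389.7 and 575 with E2 and 2163, 2971 and 3749 without (−2.52, SE 0.42, adjusted p = 0.0024). The groups did not overlap for either gene, and both calls held with any 1 rat left out. GATA3, which maintains the luminal fate, had 3208, 2533, 2696 and 3016 with E2 and 8802, 6607 and 9649 without (−1.53, SE 0.35, adjusted p = 0.021, passing in 3 of 7 fits with 1 rat left out). With the endothelial covariate no gene of the list was called, and ELF5, PRLR and GATA3 had log2 fold changes of 2.63, −2.26 and −1.53 with adjusted p that round to 0.05, 0.05 and 0.14. CSN2, which the list also holds, was the remaining call among its 23 genes, whose median was −0.11 (−0.20 to 0.16 with 1 rat left out). The list thus held 2 raised and 2 lowered genes, where 2.52% of all genes tested rose and 2.06% fell. The kinase targets STAT5A and STAT5B had log2 fold changes of 0.86 (SE 0.45, adjusted p = 0.31) and 0.32 (SE 0.35, adjusted p = 0.67). STAT5A had 733 normalized counts in no-E2 rat 2 and 4558 in no-E2 rat 1, and passed without no-E2 rat 1 (adjusted p = 0.044).

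Some regulators of mature, hormone-sensing luminal cells fell with E2. Of 20 tested, 6 fell and 1 rose, where 2.06% of all genes tested fell and 2.52% rose. The other 13 were not called, among them ESR1, PGR and FOXA1, and the median log2 fold change was −1.57 with 16 below 0. From 1 to 5 fell with 1 rat left out, and with the endothelial covariate SPDEF was the 1 that fell and LY6D the 1 that rose. MSX2, a homeobox factor, had 9.06, 0, 26.9 and 47.7 normalized counts with E2 and 889.5, 978 and 924 without (−6.43, SE 1.65, adjusted p = 0.035). CITED1, a coactivator of the estrogen receptor, had 30.9, 82.5, 122 and 277 against 1885, 4761 and 2317 (−4.81, SE 1.17, adjusted p = 0.028). TFAP2B, a transcription factor, had 118, 52.2, 141 and 59.7 against 697, 1052 and 951 (−3.37, SE 0.56, adjusted p = 0.0024). The groups were separate for all 3, and TFAP2B alone of them was called in 7 of 7 fits with 1 rat left out, against 2 for MSX2 and for CITED1. Adding the endothelial covariate left MSX2, CITED1 and TFAP2B at log2 fold changes of −6.22, −4.32 and −2.94, with adjusted p of 0.19, 0.21 and 0.052. PROM1, a membrane protein that marks hormone-sensing cells in the mouse, fell by 2.34 and SPDEF, an ETS factor, by 2.12 on the log2 scale, with calls in 1 and 0 of 7 fits with 1 rat left out. LY6D, a small membrane-anchored protein, went the other way. It had 965, 1198, 1326 and 525 normalized counts with E2 and 0, 1.33 and 0 without, 1 read in all 3 no-E2 rats, and the ratio of the pooled reads was 4166 (95% counting interval 747 to 164574). For this ratio the reads of the 4 parts of E2 rat 1 were summed. That rat thus weighs most, with 97177202 gene reads against 19998542 to 26783384 in the other E2 rats. The interval covers counting error and not the spread between rats.

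**Figure D3:**
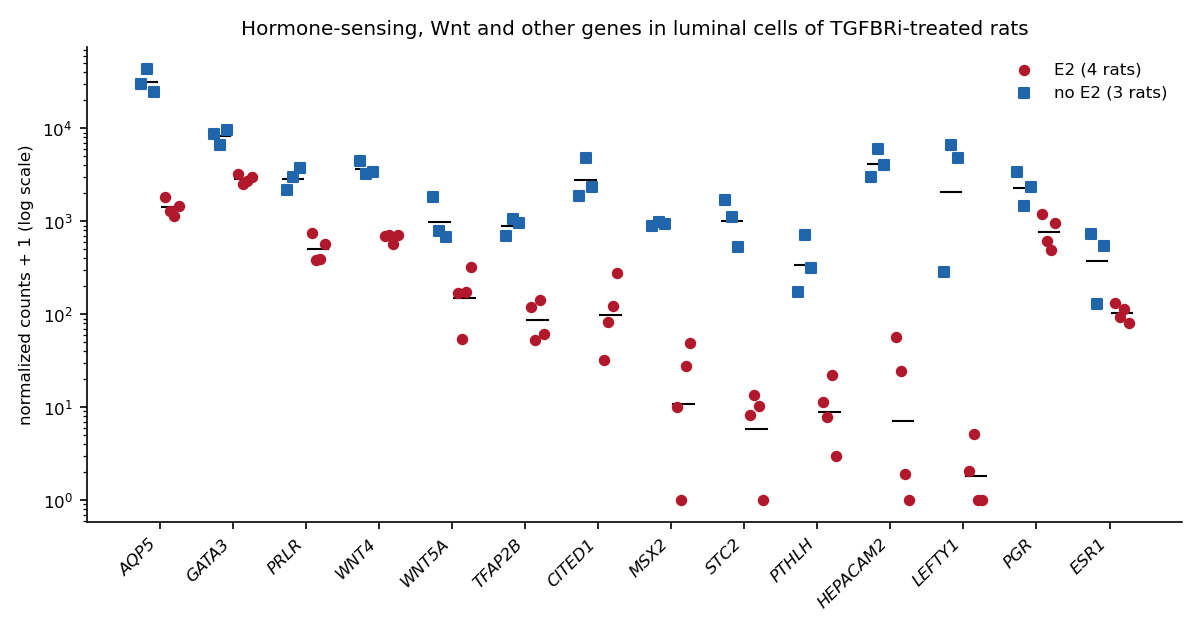
Normalized counts + 1 (log scale) of 14 genes of hormone-sensing luminal cells, Wnt signaling and secretion in TGFBRi-treated rats, with a point per rat (circles, 4 E2 rats; squares, 3 no-E2 rats) and a line at the geometric mean of each group. All E2 rats lie below all no-E2 rats in every gene shown but ESR1, whose groups overlap through no-E2 rat 2, and PGR and ESR1 did not pass the test.

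The steroid receptors themselves did not pass. Of 14 hormone receptors, PRLR was the 1 called, where 4.58% of all genes tested were called in either direction. The median log2 fold change was −0.02, and −0.37 to 0.03 with 1 rat left out. ESR1, the estrogen receptor α, had 132, 93.5, 114 and 78.6 normalized counts with E2 and 729, 129 and 539 without (−1.84, SE 1.34, adjusted p = 0.49). PGR, the progesterone receptor and itself an estrogen target, had 1199.8, 612, 488 and 953 against 3389, 1451 and 2332 (−1.56, SE 0.56, adjusted p = 0.13). The PGR groups were separate, with the E2 rats lower. FOXA1, the pioneer factor of the estrogen receptor, was at −1.59 on the log2 scale (adjusted p = 0.18).

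Of 32 known estrogen receptor targets, listed mainly from breast cancer cells, 1 rose and 4 fell, with a median log2 fold change of −0.29, where 2.52% of all genes tested rose and 2.06% fell. SERPINA1, the protease inhibitor α1-antitrypsin, had 1061, 256, 648 and 1749.8 normalized counts with E2 and 0, 1.33 and 29.3 without (log2 fold change 7.50, adjusted p = 0.0031). STC2, the hormone stanniocalcin 2, had 7.2, 12.4, 9.28 and 0 against 1688, 1119.8 and 522 (−7.43, SE 1.21, adjusted p = 0.0021). Both genes held with any 1 rat left out and their groups were far apart. CCN5 was at 0 reads in all 4 E2 rats and at 15.9, 27.9 and 31.5 normalized counts in the no-E2 rats, at least 7.9-fold lower with E2 for a floor of 3 reads per library. This bound and those below for other genes without a read in a group do not cover the spread between rats. The chemokine CXCL12 fell by 2.84 (adjusted p = 0.03) and the retinoic acid receptor RARA by 1.19 (adjusted p = 0.035) on the log2 scale. With 1 rat left out, CCN5 and CXCL12 were called in 2 and RARA in 1 of 7 fits. CXCL12 had a log2 fold change of −1.68 with the endothelial covariate (adjusted p = 0.34). STC2 was the 1 gene of the list still called with that covariate (adjusted p = 0.028), and SERPINA1 had a log2 fold change of 6.80 (0.057).

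Few paracrine and Wnt genes were called. Of 35 genes of Wnt and Notch, 1 rose and 2 fell, with a median log2 fold change of −0.59, and of 16 genes of progesterone paracrine signaling and the EGF family 1 rose and 1 fell, with a median of −0.41, where 2.52% of all genes tested rose and 2.06% fell. These medians ran from −0.82 to −0.02 and from −0.58 to −0.03 with 1 rat left out, and were −0.34 and 0.05 by DESeq2. WNT4, the Wnt ligand that carries the progesterone signal, had 686, 719, 571 and 712 normalized counts with E2 and 4501, 3248 and 3424 without (−2.46, SE 0.58, adjusted p = 0.023). The groups were separate by a wide margin, but 1 of 7 fits with 1 rat left out made the call (adjusted p 0.04 to 0.068). WNT5A, a ligand that restrains branching, had 167, 53.6, 174 and 324 against 1829, 784 and 681 (−2.71, SE 0.56, adjusted p = 0.011, called in 6 of 7 such fits). RSPO1, which strengthens Wnt signals, was higher with E2, at 4938, 2049, 245 and 5653 normalized counts against 37.8, 23.9 and 23.3 (6.08, SE 1.39, adjusted p = 0.02). E2 rat 3 was the lowest E2 rat for RSPO1, and the gene passed in 1 of 7 fits with 1 rat left out (highest adjusted p 0.089, without no-E2 rat 3). None of these 3 was called with the endothelial covariate, with log2 fold changes of −1.93 for WNT4 (adjusted p = 0.24), −2.87 for WNT5A (0.066) and 3.62 for RSPO1 (0.28). EGFR, the receptor of amphiregulin, rose by 1.80 (SE 0.36, adjusted p = 0.0095), also with the covariate (0.029), and WNT4 was the 1 paracrine gene that fell. AREG, which encodes amphiregulin, had 2815, 1839.7, 2424 and 3018 normalized counts with E2 and 6373, 17635 and 9831 without (−2.06, SE 0.77, adjusted p = 0.14), with separate groups. Of 17 genes of the IGF axis, IGFBP2, an IGF-binding protein, rose from 511, 1369.5 and 164 to 2574, 2678, 6648 and 2716 normalized counts (2.78, SE 0.55, adjusted p = 0.0084), and STC2 was the other call. EGFR and IGFBP2 were called in 7 of 7 fits with 1 rat left out, and with the covariate IGFBP2 was at 2.96 on the log2 scale (adjusted p = 0.052).

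Genes of the TGFβ pathway itself gave 1 raised and 3 lowered of 32, where 2.52% and 2.06% of all genes tested were, with a median log2 fold change of −0.51. That median ran from −1.07 to −0.00 with 1 rat left out. The receptors TGFBR1 and TGFBR2, the first of them the target of the inhibitor, had log2 fold changes of −0.06 (SE 0.61) and −0.07 (SE 0.46), and the ligand TGFB1 −0.25 (SE 0.67). TGFB2, another ligand, had 1198, 1799.8, 1485 and 1149.9 normalized counts with E2 and 675, 259 and 251 without (1.97, SE 0.53, adjusted p = 0.043). ID1, ID3 and SMAD6, which respond to BMP signals, were lower. ID1, an inhibitor of differentiation, had 226, 241, 1483 and 66.6 against 2795, 2089 and 2267 (−3.12, SE 0.83, adjusted p = 0.041), and its relative ID3 had 621, 519.7, 2408 and 248 against 2706, 3923 and 5589 (−2.56, SE 0.62, adjusted p = 0.028). SMAD6, an inhibitory SMAD, had 7.52, 0, 0 and 0 against 154, 38.5 and 233 (−6.04, adjusted p = 0.031). ID1 and ID3 were highest in E2 rat 3, the E2 rat with the most endothelial marker RNA, and with the endothelial covariate their log2 fold changes were −1.29 and −1.28 (adjusted p = 0.47 and 0.35). SMAD6 was at 0 in that rat and had a log2 fold change of −4.41 with the covariate (adjusted p = 0.29), and TGFB2 1.79 (0.26). None of the 4 calls on the list was made by edgeR, and with 1 rat left out TGFB2 and ID1 were called in 1 of 7 fits and SMAD6 and ID3 in 2. LEFTY1, a TGFβ superfamily ligand that blocks Nodal and is not on the list, had the largest fall of all named genes. It had 1.07, 4.12, 0 and 0 normalized counts with E2 and 284, 6561 and 4751 without (−10.16, SE 1.11, adjusted p = 9.5e-05), and the call held with any 1 rat left out and with the endothelial covariate (adjusted p = 0.0032).

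Channels and transporters of milk secretion changed in both directions, with 3 raised and 3 lowered of 23 (2.52% and 2.06% of all genes tested) and a median of 0.06. AQP5, a water channel, had 1842, 1276, 1152 and 1465 normalized counts with E2 and 29698, 44009 and 24854 without. The E2 rats lay within a narrow range far below the no-E2 rats (−4.50, SE 0.43, adjusted p = 5.2e-05), and the call held with any 1 rat left out (highest adjusted p 0.0007) and with the endothelial covariate (0.0028). AQP3, a water and glycerol channel, had 6864, 3283, 3348 and 5327 against 1252, 1328 and 517 (2.23, SE 0.60, adjusted p = 0.042). PTHLH, the parathyroid hormone-related protein that mobilizes calcium in lactation, had 10.5, 6.87, 21.3 and 1.99 against 174, 707 and 312 (−5.26, SE 1.21, adjusted p = 0.021). SCNN1A, a subunit of the epithelial sodium channel, fell by 2.53 (adjusted p = 0.035), and the tight junction claudin CLDN8 rose by 2.27 (adjusted p = 0.018) on the log2 scale. The zinc exporter SLC30A2, which loads milk with zinc, had 548, 406, 60.3 and 908 against 94, 10.6 and 9.6 (3.88, SE 0.89, adjusted p = 0.021), and E2 rat 3 overlapped the no-E2 rats. With 1 rat left out PTHLH, SCNN1A and CLDN8 were called in 3 of 7 fits, SLC30A2 in 2 and AQP3 in 1, and none of these 5 was called with the endothelial covariate (adjusted p 0.13 to 0.35), where PTHLH, SCNN1A, CLDN8, SLC30A2 and AQP3 had log2 fold changes of −4.76, −1.73, 2.24, 2.56 and 1.64.

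A few cell cycle genes rose, while the summed levels of the lists, in which abundant members weigh most, overlapped between the groups. Of 36 S phase genes 5 rose and none fell by limma (3 and 0 by edgeR, 7 and 1 by DESeq2), with a median log2 fold change of 0.69. Of 48 G2/M genes 3 rose and none fell by limma (0 and 0 by edgeR, 3 and 0 by DESeq2), with a median of 1.41, where limma called 2.52% of all genes tested as raised and 2.06% as lowered. Of 36 S phase genes 22 had a log2 fold change above 0, and the E2 and no-E2 rats were separate in 12 with E2 higher and 3 with E2 lower, whereas of 48 G2/M genes 39 were above 0, with 18 and 1 so separated (8.52% and 9.46% of all genes tested). Summed over the list, S phase genes reached 15450.1 to 17328 normalized counts with E2 and 14851 to 18439 without, and G2/M genes 27383 to 37626 and 28346 to 36698. DSCC1, a subunit of a clamp loader, had 44.5 to 168 normalized counts in the E2 rats and no read in any no-E2 rat, at least 41.1-fold higher for the floor of 3 reads per library. UHRF1, which maintains DNA methylation, had 193, 209, 205 and 244 against 0.839, 1.33 and 64.5 (5.02, SE 1.21, adjusted p = 0.027). The replicative helicase subunits MCM6 and MCM4 rose by 2.60 and 1.43 on the log2 scale. TPX2, TTK and DLGAP5, which act on the spindle, rose by 5.15, 3.80 and 1.96, and edgeR called none of these 3. None of these genes was called with the endothelial covariate, with log2 fold changes of 6.62, 5.83, 2.89, 1.52, 6.36, 3.33 and 1.95 for DSCC1, UHRF1, MCM6, MCM4, TPX2, TTK and DLGAP5 (adjusted p 0.08 to 0.26). DSCC1 was called in 7 of 7 fits with 1 rat left out, MCM6, MCM4 and DLGAP5 in 3, UHRF1 and TTK in 2 and TPX2 in 0. MKI67, the proliferation marker, had 276, 241, 315 and 329 normalized counts against 42, 112 and 11 (2.90, adjusted p = 0.23), with separate groups. MYBL2, a transcription factor of the cycle that was among the 15 largest rises, had 165, 235, 359 and 146 against 0, 0 and 0.457, 1 read in all. The ratio of the pooled reads was 824 (95% counting interval 148 to 32567), with the reads of the parts of E2 rat 1 summed.

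Of 12 basal markers, 3 rose with E2 by limma and by edgeR and 4 by DESeq2, and none fell by these tools. Limma called 2.52% of all genes tested as raised and 2.06% as lowered. The median log2 fold change was 0.77, with 7 above 0 and 5 below. The keratin KRT17 did not pass, with a log2 fold change of 1.38 (adjusted p = 0.087). KRT5, a basal keratin, had 505, 426, 2279.9 and 417 normalized counts with E2 and 124, 49.1 and 16 without (3.83, SE 0.73, adjusted p = 0.0063). KRT14 had 2464, 2056, 10590.2 and 1934 against 619, 1112 and 913 (1.90, SE 0.50, adjusted p = 0.04), and LGALS7, a galectin of stratified epithelium, 1546, 3421, 12209 and 2828 against 67.1, 27.9 and 26.1 (6.61, SE 1.08, adjusted p = 0.0021). E2 rat 3 was the highest in all 3 genes, but the other E2 rats were above the no-E2 rats as well. Of these 3, KRT5 and LGALS7 were called with the endothelial covariate too, and KRT14 was at 2.48 on the log2 scale (adjusted p = 0.054). KRT15, a keratin of luminal progenitors, was the 1 called of 6 luminal keratins and had 2159.7, 4115, 11273 and 2404 against 1005, 917 and 487 (2.36, SE 0.46, adjusted p = 0.0076). Among the 15 largest rises and on no list, COL17A1, a collagen of hemidesmosomes, had 2315, 905, 2215 and 1620.5 against 115, 7.97 and 0.914 (7.04, SE 1.48, adjusted p = 0.013), and FERMT1, an activator of integrins, was at 146, 232, 159.6 and 117 with E2 and at no read without, at least 62.4-fold higher. LGALS7, KRT5 and FERMT1 were called in 7 of 7 fits with 1 rat left out, KRT15 in 6, COL17A1 in 5 and KRT14 in 1. FERMT1 and KRT15 were also called with the endothelial covariate, and COL17A1 was not, with a log2 fold change of 7.06 (adjusted p = 0.095).

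Among the 15 genes with the largest change in each direction, several others had no place in the lists. Raised most were IDI2, an isopentenyl diphosphate isomerase, and PRSS32, a serine protease. IDI2 had 725, 528, 1549 and 1619 normalized counts with E2 and 1.68, 0 and 0 without, and PRSS32 had 1819.6, 1453, 946 and 2629 against 25.2, 0 and 0 (9.08, SE 1.07, adjusted p = 0.00016). The interleukin-36 receptor antagonist IL36RN, the glycine receptor subunit GLRB, the plasminogen activator inhibitor SERPINB2 and LBHD2 had no read in any no-E2 rat and were at least 59.3-fold, 71-fold, 98.8-fold and 61.9-fold higher. AOC1, which degrades histamine and polyamines, completed the raised genes. Lowered most after LEFTY1 were ABCC8, a subunit of ATP-sensitive potassium channels, and HEPACAM2, an adhesion molecule. ABCC8 had 0, 0, 0 and 0.995 against 370.1, 735 and 2004, and HEPACAM2 55.8, 23.4, 0.928 and 0 against 2965, 5956 and 4023 (−9.17, SE 1.04, adjusted p = 0.00011). Plasminogen (PLG), the neuronal adhesion molecule CNTN1, the DNA repair helicase RAD54B and the proton-gated channel ASIC2 fell, with log2 fold changes of −7.79, −7.72, −7.51 and −6.81. BMPR1B, a BMP receptor, had 32.9, 6.87, 0 and 0 against 566, 359 and 423 (−6.77, SE 1.40, adjusted p = 0.011). The protease TLL1 fell by 6.89 with 188 normalized counts in E2 rat 3 and at most 6.21 in the others, and its adjusted p was 0.41 with the endothelial covariate. BPIFB2, LRRC36, RPRM, DMP1 and MASP1, the last of them on the complement list, were the remaining lowered genes. With 1 rat left out TLL1 was called in 1 of 7 fits, SERPINB2 and RPRM in 5, LBHD2 in 6 and the others of this paragraph in 7. With the endothelial covariate SERPINB2, GLRB, LBHD2, AOC1, PLG, BMPR1B, MASP1 and BPIFB2 were not called either (adjusted p 0.052 to 0.21), at log2 fold changes of 6.85, 5.76, 4.83, 6.03, −6.65, −6.62, −6.45 and −6.65.

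The E2 effect in vehicle rats, which shares no rat with that in TGFBRi-treated rats, went mostly the same way. In vehicle rats 115 genes (0.846%) rose and 86 (0.633%) fell. Of the 343 genes raised in TGFBRi-treated rats, 334 (97.4%) had a log2 fold change above 0 in vehicle rats, as did 49.8% of all genes tested, and 62 were also called, which is 18.1% of the genes raised with TGFBRi and 53.9% of those raised with vehicle. Of the 280 lowered, 260 (92.9%) were below 0 in vehicle rats and 60 were called, 21.4% of the one list and 69.8% of the other, and no gene was called in opposite directions. Across all genes tested the log2 fold changes of the 2 comparisons had a Pearson r of 0.464, a description over genes that are not independent replicates. The vehicle counts rested on single rats, since 89 to 531 genes were called with 1 vehicle rat left out, the highest without vehicle no-E2 replicate 4. Milk proteins took 23.5% to 27.1% of gene reads in vehicle rats with E2 and 2.94%, 5.12%, 5.32% and 17.1% without, the last in vehicle no-E2 replicate 4. Of the 17 milk proteins, 4 rose in vehicle rats, with a median log2 fold change of 1.68.

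**Figure D4:**
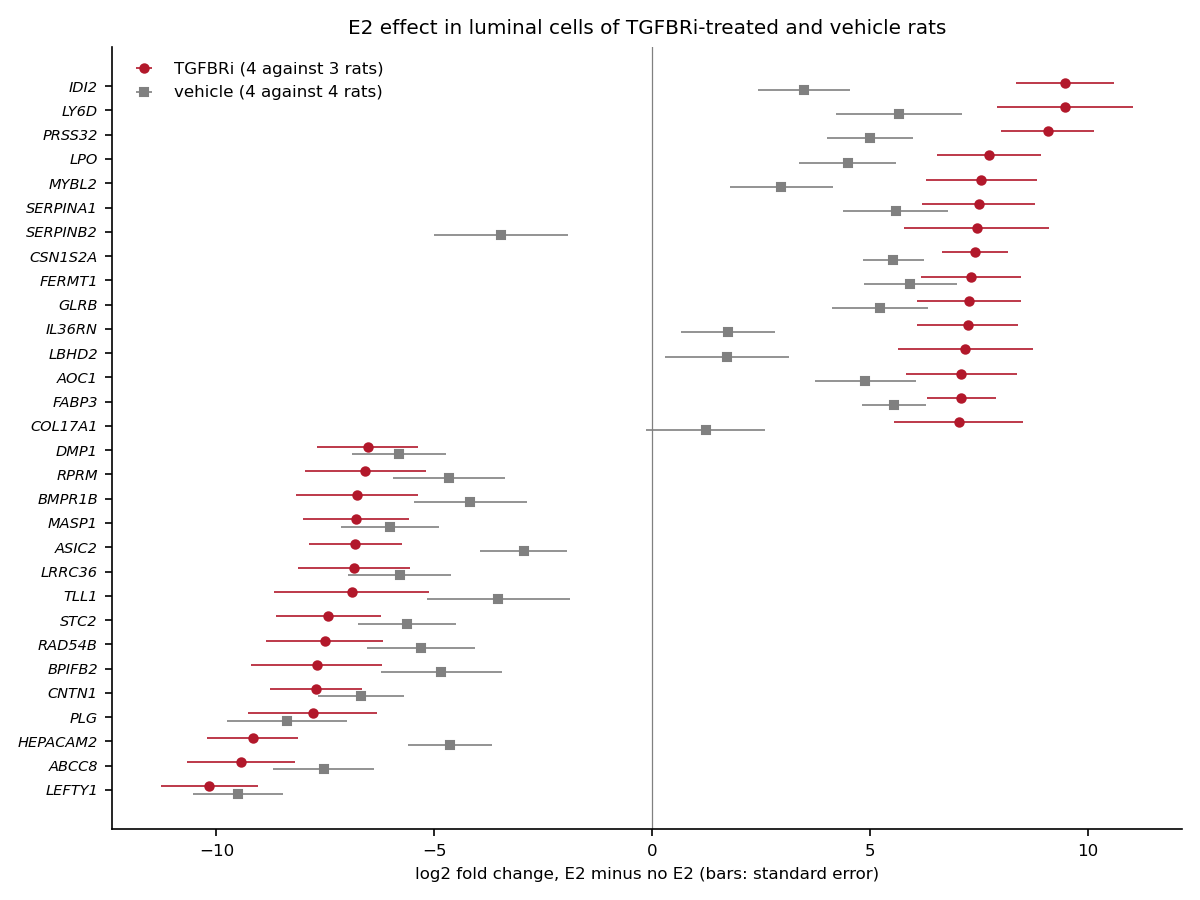
Log2 fold change with E2 (bars, standard error) of the 15 most raised and 15 most lowered genes, in TGFBRi-treated rats (circles, 4 tumor-free E2 rats against 3) and vehicle rats (squares, 4 tumor-bearing E2 rats against 4). The genes were chosen on the TGFBRi values, so that these are expected to be the larger by selection, and SERPINB2 alone has the opposite sign in vehicle rats (−3.46, adjusted p = 0.31).

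No gene passed the test of the difference between the E2 effects of TGFBRi and vehicle rats (0 of 13590 by limma, 0.00%), with 579 genes at an unadjusted p under 0.05, fewer than the share of 0.05 that this threshold gives with no difference. edgeR also called 0, DESeq2 called 12 above and 5 below 0, and limma without TGFBRi E2 rat 3 called 2. A p that misses the threshold does not show that the effects were alike. AQP5 fell by 4.50 (SE 0.43) with TGFBRi and by 2.94 with vehicle, where its mean went from 24405 to 3009 normalized counts. The unadjusted p of this difference by limma was 0.017. CSN1S2A rose by 7.42 and 5.54, PRLR fell by 2.52 and 1.78, and GATA3 by 1.53 and 1.40 on the log2 scale. Other genes differed more in size, with LGALS7 at 6.61 with TGFBRi and 0.95 with vehicle (unadjusted p of the difference 0.0012, adjusted 0.70), KRT5 at 3.83 and 0.30 (0.0023, adjusted 0.72) and CXCL12 at −2.84 and −0.32 (0.016, adjusted 1.00), while KRT14 was at 1.90 and 2.25. LGALS7 averaged 176 normalized counts in vehicle rats with E2 and 135 without, and KRT5 168 and 148. These genes are examples and not the largest differences. The unadjusted p of the difference was smaller for SERPINB2 (0.00015, adjusted 0.29), CCN5 (0.00075, adjusted 0.70) and IDI2 (0.0011, adjusted 0.70). The 5 genes with the smallest p of the difference, none of them called, were PCDHA8, MYCL, FGF10, BRINP1 and MAP7D2. MYCL, a relative of MYC, had a mean of 0 normalized counts in vehicle rats with E2 and 125 without, whereas it was at 56, 26.1, 75.2 and 78.6 with E2 and 66.3, 9.3 and 29.3 without E2 in TGFBRi-treated rats. FGF10, a fibroblast growth factor, and PCDHA8, a protocadherin, were at 0 in every vehicle rat and every E2 rat and at 14.6 to 21.5 and 17.3 to 40.3 normalized counts in TGFBRi-treated rats without E2, and BRINP1 was at 20.3, 34.4, 39.9 and 48.7 with E2 and 0 without. MAP7D2, a microtubule-associated protein, had log2 fold changes of −2.91 with TGFBRi and 5.18 with vehicle.

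The 2 tumor-bearing TGFBRi-treated rats with E2 were compared with the same no-E2 rats. Here 85 genes (0.625%) rose and 51 (0.375%) fell. The milk proteins took 29.5% and 17.7% of their gene reads. Side by side with the values of the tumor-free rats, the log2 fold change of CSN1S2A was 7.77 (tumor-free 7.42), of FABP3 7.07 (7.10), of ELF5 3.03 (2.65), of AQP5 −2.80 (−4.50), of PRLR −1.72 (−2.52) and of LEFTY1 −11.02 (−10.16). LGALS7, KRT5 and IGFBP2 were at 0.32, 0.80 and −1.65, none of them called, against 6.61, 3.83 and 2.78 in the tumor-free rats. Both comparisons use the same no-E2 rats, and with 2 tumor-bearing rats the difference between them was not tested.

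The 4 parts of E2 rat 1 allowed the spread within a rat to be set beside that between rats. The median SD of a gene on the log2 scale was 0.33 between the parts, 0.48 between the 4 E2 rats and 0.62 between the 3 no-E2 rats, and the SD between E2 rats was the larger in 63.8% of genes. Pearson's r across genes was 0.935 to 0.955 between parts, 0.883 to 0.941 between E2 rats, 0.898 to 0.924 between no-E2 rats and 0.848 to 0.911 between an E2 and a no-E2 rat. Part 1 alone in place of the average gave 321 raised and 284 lowered genes.

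**Figure D5:**
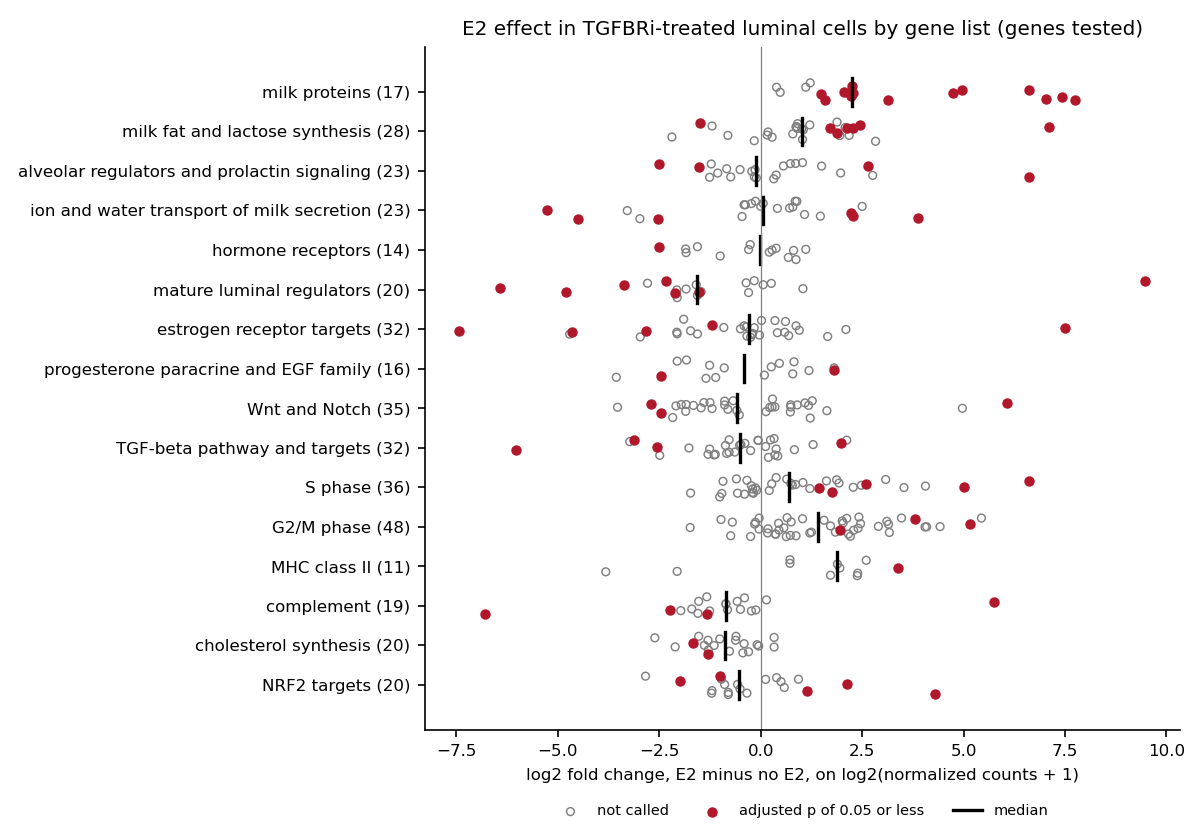
Log2 fold change with E2 in TGFBRi-treated luminal cells for each gene of 16 lists (filled, called; open, not called; black line, median of the list; the number of genes tested in brackets). Milk proteins lie wholly above 0 with a median of 2.24, and mature luminal regulators have a median of −1.57 with LY6D far to the right.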

How the data were processed

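RNA of sorted luminal cells was made into SMARTer v4 libraries, whose reads do not keep the strand, so overlapping genes cannot be told apart. Per the labels and methods, the authors aligned reads to rn6 with STAR 2.5.1b, took HTSeq counts per RefSeq gene and used DESeq2 1.30.1. The deposited signal values were taken to be these counts divided by a size factor of each sample. That reading rests on the values themselves, since all 235676 above 0 gave whole reads at a tolerance of 0.001. Reads on no gene (15.9 to 24.1% of reads) and non-unique or ambiguous reads were left out, so near-identical genes (RT1, GSTA) are less certain. Whether related genes such as the caseins lost reads in this way was not tested. Normalized counts of the parts of E2 rat 1 were averaged, and their recovered reads were summed.

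Log2(normalized count + 1) values of 17 rats in 5 luminal groups, over 13590 genes that sum to at least 10, were fitted with limma 3.58.1 (R 4.3.3; trended prior, robust) with Benjamini-Hochberg adjustment at 0.05, two-sided. Log2 fold changes are on this scale, which understates those of low genes. edgeR 4.0.16 and DESeq2 1.42.0 on recovered reads, other pseudocounts, filters, scaling and left-out rats were alternatives. The limma, edgeR and DESeq2 fits of the main comparison, and no others, were also run on a simulated data set, whose outcome is not given here. Replicates are separate rats. Named genes are the 15 largest called changes per direction with non-overlapping groups and a mean of at least 50 in the higher group (4 without a gene name left out in each direction), at most 6 called members per direction and the first 4 members of each list, and the 5 smallest p of the difference. Outside this rule, CSN3, XDH, MUC15, BTN1A1, MFGE8, LALBA, TF, CEL, SPP1, TGFBR2, MKI67 and CD79B were chosen after their values were seen. A few list members are not reported here. Members and lists were chosen with earlier results of these data known.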

Additional observations from a re-analysis of the deposited data

Results flagged for a closer look

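The values of single rats were compared with those of their group for 187 named genes with a mean of at least 50 normalized counts in the 4 tumor-free TGFBRi-treated E2 rats. In 14 genes the highest or lowest E2 rat lay far from the other 3 by the 95% limit of Dixon's test, and 13 of these were E2 rat 3. Chance gives about 1 in 20 groups, so a large part of these 14 among 187 genes can arise by chance. Genes that vary together are also not separate groups.

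E2 rat 3 lay far below the other E2 rats by this limit for 3 milk proteins, with 1809 normalized counts of LPO (others 4234 to 4439.7), 3898 of PIGR (8655 to 9929.7) and 12222 of WAP (57877 to 64064). The same held for the desaturases FADS2 with 1501 (2887 to 2988) and SCD with 190.2 (1566 to 2374) and for the ETS factor SPDEF with 26.9 (138 to 168).

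It lay as far above the others for the basal keratins KRT5 with 2279.9 normalized counts (others 417 to 505) and KRT14 with 10590.2 (1934 to 2464), for IGFBP2 with 6648 (2574 to 2716) and for the fatty acid-binding protein FABP4 of fat and endothelium with 4822 (444 to 666). The same was true of the interferon regulator IRF7 with 1958 (479.9 to 526), the AP-1 factor FOSL1 with 18456 (13850.2 to 13945) and the heat shock gene HSPA1B with 122 (27.9 to 35.7). E2 rat 2 lay far below the others for the complement gene C1QC with 2.75 normalized counts (93.5 to 178).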

How the results depend on the processing

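No paired analysis was possible because each rat belongs to 1 group and the numbers only name rats. Against 343 raised and 280 lowered genes, edgeR on recovered reads gave 215 and 163 and DESeq2 582 and 565. With 1 TGFBRi-treated rat left out, 146 to 335 rose and 100 to 310 fell, with raised counts of 146, 159 and 146 without E2 rats 1, 2 and 4 and 208 and 152 without no-E2 rats 2 and 3, and lowered counts of 100 to 123 without E2 rats 1, 2 or 4 and of 174, 145 and 100 without no-E2 rats 1, 2 and 3. Choices made after seeing the data were the endothelial covariate, which gave 61 and 48, and leaving out E2 rat 3 and no-E2 rat 2, which gave 260 and 229. Other pseudocounts (0.5 and 8), filters and TMM scaling gave 330 to 356 raised and 242 to 299 lowered genes. In vehicle rats, 201 genes were called, 624 by DESeq2 and 89 to 531 with 1 vehicle rat left out (131, 98, 132 and 118 without E2 replicates 1 to 4, 89 and 531 without no-E2 replicates 3 and 4). The difference of E2 effects gave 0 genes, 17 by DESeq2 and 0 to 2 with 1 rat left out. Tumor-bearing rats gave 136 genes against no E2, 823 by DESeq2 and 84 to 152 with 1 no-E2 rat left out. The causes of these changes were not tested. Of the called genes that the naming rule gave, none changed direction under any of these alternatives. List medians were less stable, since 23 of 315 alternative medians of the 35 lists changed sign. With the endothelial covariate 33 of the called genes given by the rule were still called and 73 were not, by edgeR 65 and 41, and with 1 rat left out 56 to 92 were still called. Depth was 18561677 reads or more per sample, so counting error weighs mainly on low genes, which also varied between samples. Groups of 2 to 4 rats limit all tests.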

Other observations

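Genes of defense and antigen presentation were called in both directions. Of 19 complement genes 1 rose and 3 fell, where 2.52% and 2.06% of all genes tested did, with a median log2 fold change of −0.86. C3, the central complement protein, had 21804, 13701, 5526 and 17574 normalized counts in E2 rats and 576, 94.3 and 254 in no-E2 rats (5.76, SE 1.23, adjusted p = 0.017, called in 4 of 7 fits with 1 rat left out). CFI, which cleaves C3b, fell from 4829, 3429.8 and 3865 to 462, 1415, 817 and 994 (−2.23, SE 0.42, adjusted p = 0.0055), and clusterin (CLU) fell by 1.33 on the log2 scale. The lectin pathway protease MASP1 was the third lowered gene. Of 11 MHC class II genes, RT1-BB alone was called (3.38, SE 0.88, adjusted p = 0.037), and edgeR called none, while DESeq2 called 1 lowered and none raised. From 0 to 4 of the 11 rose with 1 rat left out. The class II genes summed to 40381, 24584, 57699 and 45184 normalized counts with E2 and 2419, 29821 and 4557 without, so no-E2 rat 2, which also had the most leukocyte marker RNA, overlapped the E2 rats. Of 27 chemokine and acute phase genes, CCL28, a chemokine that draws IgA-secreting cells to the lactating gland, rose by 3.76 (adjusted p = 0.049) and IL1A by 1.95 (adjusted p = 0.05), and CXCL12 fell. With 1 rat left out CFI was called in 7 of 7 fits, CLU and CCL28 in 3, RT1-BB in 1 and IL1A in 0, and with the endothelial covariate no gene of these 3 lists was called, at log2 fold changes of 4.80, −1.97, −0.90, −6.45, 3.40, 3.21, 2.11 and −1.68 for C3, CFI, CLU, MASP1, RT1-BB, CCL28, IL1A and CXCL12. None of 31 interferon-stimulated genes was called by limma, edgeR or DESeq2, with a median of −0.2 and 7 at an unadjusted p under 0.05.

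Of 20 cholesterol synthesis genes, SQLE and FDPS fell (−1.67 and −1.30) and none rose, where 2.06% and 2.52% of all genes tested did, and DESeq2 lowered 6. All but 2 were below 0, with a median of −0.89, and in 11 the E2 rats lay below all no-E2 rats (9.46% of all genes tested). Of 20 NRF2 targets, the glutathione transferase GSTA1 rose from 577, 488 and 328 normalized counts without E2 to 8672, 15725, 3927 and 11939 with E2 (log2 fold change 4.30, SE 0.65, adjusted p = 0.0013), as did the NADPH enzyme ME1, whereas heme oxygenase HMOX1 and ferritin FTL1 fell, and the median was −0.54. PHGDH, the first enzyme of serine synthesis, rose by 2.78 (SE 0.41, adjusted p = 0.0012) and PPP1R15A fell by 0.71, the calls among 19 genes of the integrated stress response (median −0.37). CREB3L4 was the 1 call of 25 endoplasmic reticulum chaperone genes (−1.63, adjusted p = 0.012, median −0.18). Of 23 immediate early genes 20 were below 0 (median −0.38), and JUND and KLF2 fell by 1.19 and 1.33. KLF9 was the 1 lowered of 13 glucocorticoid-responsive genes (median −0.16), and of 8 adipocyte markers FABP4 fell and CIDEC rose. Of 19 G1 regulators CDKN2A alone rose (median 0.1). With the endothelial covariate GSTA1 and PHGDH were still called, and the others named here as raised or lowered were not (adjusted p 0.055 to 0.53), at log2 fold changes of −1.35, −1.28, 1.71, −2.01, −0.81, −0.64, −1.70, −0.98, −0.87, −0.82, −0.98, 1.84 and 5.55 for SQLE, FDPS, ME1, HMOX1, FTL1, PPP1R15A, CREB3L4, JUND, KLF2, KLF9, FABP4, CIDEC and CDKN2A. With 1 rat left out GSTA1, PHGDH, ME1 and JUND were called in 7 of 7 fits, CREB3L4 in 5, HMOX1, FTL1, KLF2 and CIDEC in 2, SQLE, FDPS, PPP1R15A, KLF9 and FABP4 in 1 and CDKN2A in 0. No gene was called by limma among 14 heat shock chaperones (median −0.74, 4 at an unadjusted p under 0.05, 0 by edgeR and 2 by DESeq2) or 15 circadian clock genes (median −0.45, 3, 0 and 1). Fibroblast, leukocyte, erythroid and luminal markers gave no call by limma or edgeR, with medians of −1.92, −1.82, −0.34 and −0.12 and 2, 4, 0 and 2 genes at an unadjusted p under 0.05, whereas DESeq2 lowered 1, 4, 0 and 2 of them. Of 5 plasma cell markers POU2AF1 fell (median 0.09, called in 3 of 7 such fits).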
